A study of Homo sapiens with 12 samples.

Results

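The genes described here are 10 immediate early genes, chosen by name: EGR1, EGR2 and EGR3, KLF2, KLF4, KLF6 and KLF10, IER2 and IER5, and MYC. They are 10 of the 57500 genes of the table, and all 10 passed the filter on low counts that left 27029 genes for testing. Total RNA, depleted of ribosomal RNA, was sequenced from HCC1806 and MDA-MB-468, established human cell lines of triple-negative breast cancer. In each line, 3 libraries came from cells with a control guide RNA, sgC1 in HCC1806 and sgNTA in MDA-MB-468. Another 3 came from cells in which PACT, the double-stranded RNA binding protein encoded by PRKRA, had been depleted with CRISPR-Cas9 and the guide sgPACT-2. A single PRKRA guide was used, so an effect of depletion and an effect particular to that guide cannot be told apart. No label says whether the replicates were separate cultures, so p-values measure the spread between these libraries, which may be technical. The series title links PACT to restraint of the kinase PKR, and the comparisons ask how the RNA of these genes differed with depletion in each line.

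Immediate early genes are transcribed within minutes of a stimulus, because the factors that switch them on are already present in the cell and are activated by kinases such as ERK and p38. Among these factors are SRF with its ELK partners, and CREB. Their products are mostly transcription factors and brakes on signalling, and many of their RNAs are short-lived. The EGR proteins bind GC-rich sites and switch on growth and feedback genes. The KLF proteins bind GC boxes and related CACCC sites, and several of them are known in epithelia for differentiation and for restraint of growth. IER5 partners the heat shock factor HSF1, and MYC with MAX binds E-boxes in genes of ribosome and nucleotide synthesis.

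Libraries of HCC1806 held 18640633 to 24704877 counts and those of MDA-MB-468 held 34581754 to 44790741. Mitochondrial genes took 11.6% to 15.0% and 6.31% to 8.90% of them. Levels are given as CPM, the usual count scaled to library size, with TMM, a correction for RNA composition, and means are ± SD of 3 libraries. PRKRA stood at 77.8 ± 5.30 CPM in control and 36.9 ± 0.774 CPM in depleted libraries of HCC1806, which is -1.07 on the log2 scale (SE 0.10, adjusted p = 1.7e-05). In MDA-MB-468 it stood at 44.65 ± 3.12 and 38.8 ± 3.09 CPM, its control and depleted libraries overlapped, and the change of -0.20 (SE 0.10) had an adjusted p of 0.958. The RNA level does not measure the protein. PGR, the progesterone receptor gene, was at most 0.301 CPM in all 12 libraries, while ESR1 was 6.27 to 24.2 CPM and ERBB2 124.1 to 209 CPM. The T cell gene CD3E was at 0 in 11 of 12 libraries. In bulk RNA, fewer cells of a type and less RNA per cell cannot be told apart.

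The promoters of EGR1, EGR2, KLF2, KLF4 and KLF6 are shown because EGR1 had the largest fitted scatter of the members, EGR2 is its relative, and the KLF genes rose with depletion. Each line gives the 250 bases before a RefSeq transcript start (GRCh38.p14), 5′ to 3′ on the strand of the gene, cut to the first 241 for KLF2 and 178 for KLF6, where the rest lies in an exon of GENCODE 29. Capitals mark CArG boxes, the SRF site (CC, 6 bases of A or T, GG), and GC boxes, the letters GGGCGG on either strand.
EGR1, chr5:138465229-138465478, plus strand: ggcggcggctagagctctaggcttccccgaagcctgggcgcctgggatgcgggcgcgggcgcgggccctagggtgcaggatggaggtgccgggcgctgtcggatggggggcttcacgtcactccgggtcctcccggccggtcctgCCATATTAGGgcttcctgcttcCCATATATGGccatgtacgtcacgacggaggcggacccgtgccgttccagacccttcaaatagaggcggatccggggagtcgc
EGR2, chr10:62816367-62816616, minus strand: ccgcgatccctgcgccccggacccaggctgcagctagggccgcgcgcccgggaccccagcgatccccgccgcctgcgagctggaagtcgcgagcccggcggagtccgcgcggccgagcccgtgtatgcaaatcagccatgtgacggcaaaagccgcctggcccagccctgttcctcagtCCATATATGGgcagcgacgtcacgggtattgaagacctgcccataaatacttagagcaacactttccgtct
KLF2, chr19:16324576-16324816, plus strand: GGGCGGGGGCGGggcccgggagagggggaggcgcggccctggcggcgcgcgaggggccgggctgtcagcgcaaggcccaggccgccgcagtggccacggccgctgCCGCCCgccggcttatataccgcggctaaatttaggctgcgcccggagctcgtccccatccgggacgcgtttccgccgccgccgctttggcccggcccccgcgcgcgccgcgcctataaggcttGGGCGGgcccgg
KLF4, chr9:107489770-107490019, minus strand: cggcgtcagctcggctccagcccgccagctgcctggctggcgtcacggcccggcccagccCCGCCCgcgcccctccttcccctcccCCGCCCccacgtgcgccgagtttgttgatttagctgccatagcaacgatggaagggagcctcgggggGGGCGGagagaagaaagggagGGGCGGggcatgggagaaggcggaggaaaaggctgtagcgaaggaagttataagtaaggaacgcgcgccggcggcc
KLF6, chr10:3785282-3785459, minus strand: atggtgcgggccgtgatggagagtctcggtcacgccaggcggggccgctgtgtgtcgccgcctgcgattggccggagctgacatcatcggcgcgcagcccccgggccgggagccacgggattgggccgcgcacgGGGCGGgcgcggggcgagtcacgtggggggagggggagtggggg
RefSeq windows were used for 7 of the 10 members, all but EGR3, KLF10 and MYC, and they numbered 9 because EGR2 had several start sites. Motifs were searched on both strands in 300 bases, 250 before to 50 after each start, and in all 35116 such windows. EGR1 held 2 CArG boxes, and the EGR2 window shown held 1. A CArG box was present in 1.29% of all windows, and none was found in the windows of KLF2, KLF4, KLF6, IER2 or IER5. GC boxes numbered 6 in KLF2 (4 in the bases shown), 4 in KLF4, 2 in KLF6 (1 in the bases shown) and 4 in IER2, and none was found in EGR1, the EGR2 window shown or IER5. The other EGR2 windows, not shown, held 2 and 4 GC boxes and no CArG box. These letters are common and were present in 45% of all windows. The EGR core (GCGGGGGCG or GCGTGGGCG, 5.77% of windows) was found in KLF2 and KLF6, where it overlapped a GC box. The E-box CACGTG (7.26% of windows) was found in KLF4, KLF6 and another EGR2 window. The CRE half-site TGACG (24.6% of windows) was found in EGR1, the EGR2 window shown, KLF4 and IER2. Neither the full CRE TGACGTCA (1.85% of windows) nor a kappaB motif (5.91%) was found in a member's window. A match is a description of letters and does not show that a factor bound there.

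The KLF genes were the members that rose with PACT depletion. In HCC1806 all 4 rose, by 1.89-fold to 2.55-fold, and in each of them every depleted library lay above every control library. KLF4 (chr9:107484852-107490482, GENCODE 29 on GRCh38, minus strand), a regulator of epithelial differentiation and of growth arrest, read 12.4, 10.7 and 11.1 CPM in control replicates 1 to 3. Depleted replicates 1 to 3 read 34.2, 24.1 and 29.2 CPM. The lowest depleted library of KLF4 thus stood well above the highest control library. Its log2 fold change was 1.35 (SE 0.16, 95% interval 1.01 to 1.69), with an adjusted p of 0.000219 by edgeR's quasi-likelihood test with Benjamini-Hochberg adjustment over all 27029 genes.

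KLF10, the TGF-beta inducible early gene, which lies on chromosome 8 and encodes a repressor of growth, read 35.4, 27.7 and 35.3 CPM in control and 84.4, 64.7 and 96.2 CPM in depleted libraries of HCC1806. Here too the groups were far apart, and the rise was 1.32 on the log2 scale (SE 0.15, adjusted p = 9.19e-05). KLF2 (chr19:16324817-16327874, plus strand), known for quiescence of endothelial cells and lymphocytes, was the least abundant of the 4. It read 4.09, 2.64 and 3.94 CPM in control and 9.80, 7.02 and 8.31 CPM in depleted libraries, a rise of 1.23 on the log2 scale (SE 0.21, adjusted p = 0.00464). KLF6 (chr10:3775996-3785281, minus strand), a growth-restraining member, read 55.5, 36.9 and 51.9 CPM in control and 126.1, 63.6 and 82.9 CPM in depleted libraries. The gap between its groups was small beside their spread, and it rose by 0.92 on the log2 scale (SE 0.20, adjusted p = 0.0191).

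The calls of KLF4 and KLF10 in HCC1806 held in every fit made. Fitted on the 6 HCC1806 libraries alone, they had adjusted p-values of 0.00431 and 0.00797, while those of KLF2 and KLF6 were 0.0603 and 0.167. The KLF6 call also ended without control replicate 2, the lowest control library (adjusted p = 0.0733), and without depleted replicate 1, the highest, its log2 fold change was 0.61.

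In MDA-MB-468 the same 4 genes did not move alike. KLF4 read 16.8, 17.6 and 13.5 CPM in control and 29.5, 21.4 and 30.0 CPM in depleted libraries, and KLF10 read 23.8, 24.2 and 21.8 CPM and 40.2, 31.0 and 37.9 CPM. For both genes the groups did not overlap. Their log2 fold changes were 0.76 (SE 0.16, adjusted p = 0.0734) and 0.65 (SE 0.15, adjusted p = 0.119) in the model of all 12 libraries. This model gives both lines 1 estimate of the spread. Fitted on the 6 MDA-MB-468 libraries alone, where the spread was smaller, both passed, at adjusted p-values of 0.000105 and 4.33e-05. KLF6 read 87.2, 71.4 and 73.6 CPM in control and 92.6, 81.1 and 97.1 CPM in depleted libraries, which overlapped (0.22, SE 0.19, adjusted p = 1, and 0.166 alone). KLF2 was not separated, at 4.71, 4.99 and 4.82 CPM in control and 5.73, 4.51 and 4.34 CPM in depleted libraries, with a 95% interval of its log2 fold change from -0.42 to 0.43.

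**Figure D1:**
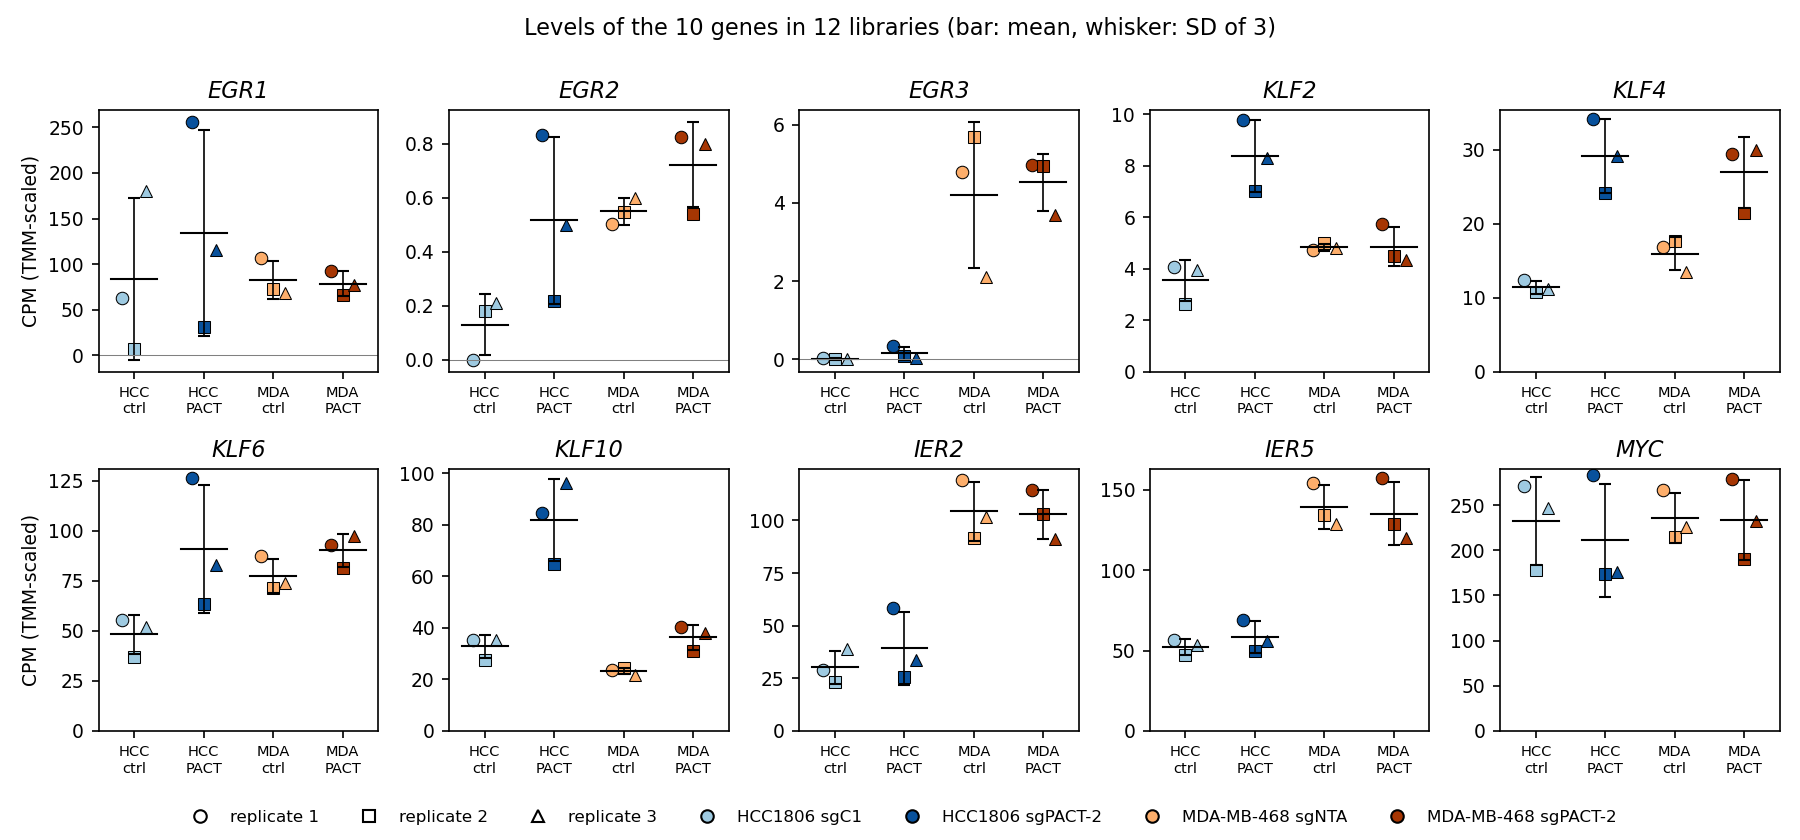
Level of each of the 10 genes in CPM (vertical axes, linear, each with its own scale) in the 12 libraries, grouped by cell line and guide, with the marker shape giving the replicate number, a bar at the mean and a whisker of 1 SD. KLF2, KLF4, KLF6 and KLF10 were higher in every depleted than in every control library of HCC1806, KLF4 and KLF10 also in MDA-MB-468, while EGR1 ranged from 6.98 to 180.5 CPM within the HCC1806 control group alone.

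The EGR genes gave no call in either line, and they did so at very different levels. EGR1 (chr5:138465490-138469315, plus strand), the best known early reader of ERK signalling, read 62.8, 6.98 and 180.5 CPM in HCC1806 control replicates 1 to 3. The depleted replicates read 255.8, 31.0 and 115.5 CPM. Replicate 2 was the lowest of each group, and the groups overlapped over most of their range. The log2 fold change of 0.68 (SE 0.70, adjusted p = 0.755) had a 95% interval of -0.79 to 2.15, wide enough to hold both a fall and a rise larger than that of KLF4. Without depleted replicate 1 the value was -0.18, and without control replicate 3 it was 1.94. With the replicate number as a block it was 1.10 (adjusted p = 0.0648), and in a fit with no filter on low counts it passed, at 0.68 with an adjusted p of 6.85e-06. That fit used the same overlapping libraries and left the log2 fold change at 0.68. Why its p-value was so much smaller was not tested. In MDA-MB-468 EGR1 read 106.9, 72.6 and 68.6 CPM in control and 92.8, 66.3 and 76.5 CPM in depleted libraries, which overlapped (-0.07, SE 0.69, adjusted p = 1). That SE rests on the 1 estimate of the spread that both lines share. With MDA-MB-468 fitted alone the value was -0.06 (SE 0.11, adjusted p = 0.907).

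EGR2 (chr10:62811996-62919900, minus strand), known for myelination and lymphocyte tolerance, was scarce. In HCC1806 it had 0, 4 and 5 counts in control and 17, 5 and 15 counts in depleted libraries. The groups lay just apart, since the lowest depleted library read 0.217 CPM and the highest control library 0.212 CPM. Pooled over the libraries, 37 counts against 9 gave a ratio of 3.91 with a 95% exact interval of 1.86 to 9.22 for counting error only, and the fit gave an adjusted p of 0.197. In MDA-MB-468 it read 0.501, 0.548 and 0.599 CPM in control and 0.827, 0.541 and 0.800 CPM in depleted libraries, which is 0.39 on the log2 scale (SE 0.57, adjusted p = 1). EGR3, which lies on chromosome 8, was close to absent from HCC1806, with 1, 0 and 0 counts in control and 7, 2 and 1 counts in depleted libraries. The pooled 10 counts against 1 gave a ratio of 9.52 with a counting interval of 1.35 to 413, and the adjusted p was 0.302. In MDA-MB-468 EGR3 read 4.79, 5.69 and 2.10 CPM in control and 4.96, 4.93 and 3.69 CPM in depleted libraries, which overlapped (0.12, SE 0.37, adjusted p = 1). Its exons share 164 bases with AC055854.1 on the other strand, and the strand setting of the counting is not known, so its counts are uncertain.

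The IER genes and MYC gave no call with depletion in either line. IER2 (chr19:13150415-13154908, plus strand), a small nuclear protein induced with growth, read 28.98, 23.0 and 38.7 CPM in HCC1806 control and 58.6, 25.4 and 33.5 CPM in depleted libraries. Depleted replicate 1 stood alone above the others, and without it the log2 fold change of 0.37 (SE 0.23, adjusted p = 0.527) became -0.03. In MDA-MB-468 its groups stood at 104.3 ± 14.0 and 102.9 ± 11.7 CPM. IER2 shares 946 exon bases with the antisense gene AC011446.2, so its counts are uncertain in the same way. IER5 (chr1:181088712-181092899, plus strand) had overlapping groups in HCC1806, at 56.5, 47.0 and 53.5 CPM in control and 69.1, 49.7 and 55.9 CPM in depleted libraries (0.15, SE 0.13, adjusted p = 0.697). In MDA-MB-468 its groups stood at 139.3 ± 13.5 and 135.3 ± 19.6 CPM, and the 95% interval of its log2 fold change ran from -0.32 to 0.24.

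MYC, on chromosome 8, read 271.9, 177.8 and 247.4 CPM in HCC1806 control and 283.1, 173.5 and 176.3 CPM in depleted libraries. Both groups spanned nearly the same range, and the log2 value of their ratio was -0.14 (SE 0.19, 95% interval -0.54 to 0.26, adjusted p = 0.836). In MDA-MB-468 it read 267.3, 214.8 and 226.4 CPM in control and 279.2, 190.7 and 232.3 CPM in depleted libraries, again without separation (-0.01, SE 0.19, 95% interval -0.41 to 0.38).

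In all, 4 of the 10 members were called higher and 0 lower in HCC1806, where 1.16% of all genes tested were called higher and 1.32% lower. In 5 members every depleted library lay above every control library, the called 4 and EGR2, which was the case for 8.51% of all genes. The median log2 fold change was 1.07, or 0.80 without the scarce EGR2 and EGR3, against 0.01 over all genes. Of the 8 members that could be tested in HCC1806 alone, 2 were called higher, against 0.277% of all genes. In MDA-MB-468 0 members were called by edgeR, where 0.17% of all genes were called higher and 0% lower, and 2, KLF4 and KLF10, had an unadjusted p under 0.05. DESeq2 called 2 members there, where it called 0.381% of all genes higher. The same 2 did not overlap between the groups, which held for 6.2% of all genes. In the fit of that line alone 2 of 10 members were called higher, against 1.21% of all genes. The members were picked by name with earlier results of these data known, so these counts describe them and are no test of the set.

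**Figure D2:**
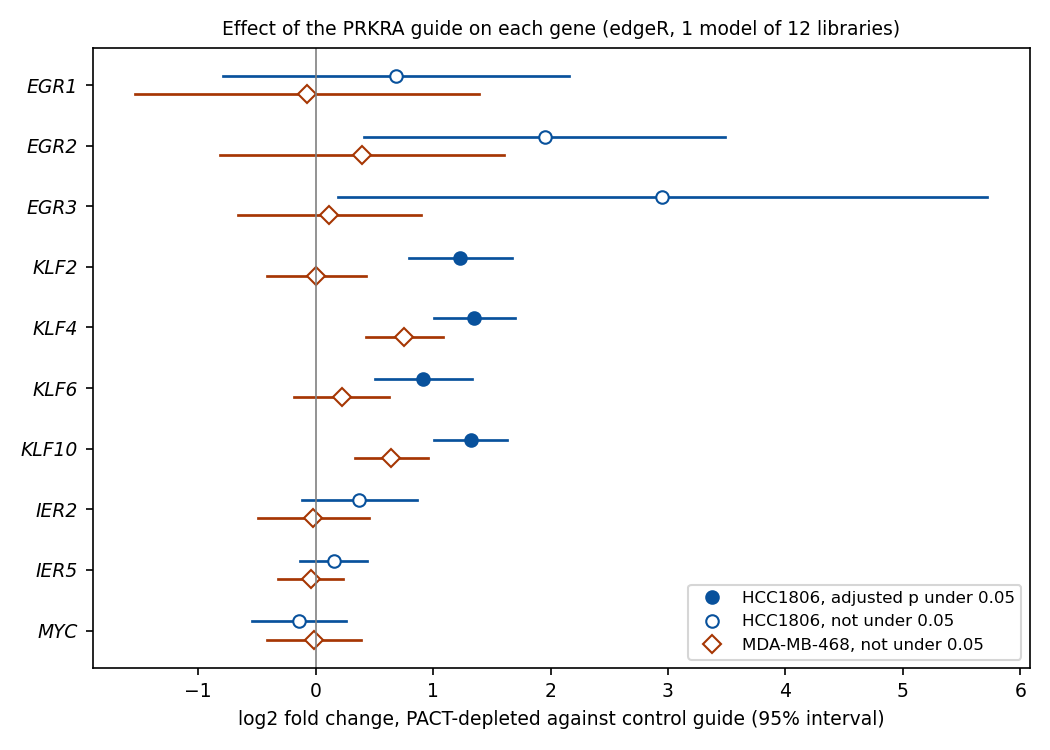
Log2 fold change of each gene (horizontal axis) in depleted against control libraries with its 95% interval, circles for HCC1806 and diamonds for MDA-MB-468, filled where the adjusted p was under 0.05. The 4 KLF genes in HCC1806 are the filled points, between 0.92 and 1.35, and the intervals of EGR1, EGR2 and EGR3 are the widest.

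Whether the effect of depletion differed between the lines was tested as an interaction, the effect in MDA-MB-468 minus that in HCC1806. By edgeR 0 of the 10 members passed, where 0.122% of all genes did (33 genes), and 4 members, all of them KLF genes, had an unadjusted p under 0.05. KLF2 had the largest difference of the 4, at -1.22 (SE 0.29, adjusted p = 0.145), the rise in HCC1806 set against a fold change near 0 in MDA-MB-468. KLF10 differed by -0.67 (SE 0.21, adjusted p = 0.305), KLF6 by -0.69 (SE 0.27, adjusted p = 0.485) and KLF4 by -0.60 (SE 0.22, adjusted p = 0.455). PRKRA itself differed, by 0.87 (SE 0.14, adjusted p = 0.0198), its RNA having fallen in HCC1806 and not passed in MDA-MB-468, and the part of this in the KLF differences was not tested. With the replicate number as a block, which called 271 genes in all or 1% of those tested, 3 members passed, KLF2 at -1.24 (adjusted p = 0.0268), KLF6 at -0.66 (0.0334) and KLF10 at -0.67 (0.033). DESeq2, which called 178 genes or 0.904%, called KLF2 (adjusted p = 0.0156). A difference between the lines in the KLF response was thus not established by the edgeR model of 12 libraries and passed for some genes in other fits.

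The lines also differed before depletion. Between their control libraries, where cell line and control guide cannot be told apart, 6 members were called higher and 1 lower in MDA-MB-468, where 34.2% of all genes were called higher and 40.1% lower. Most genes tested thus passed this comparison. The largest difference was that of EGR3, 4.19 ± 1.87 CPM in MDA-MB-468 controls against 1 count in the 3 HCC1806 controls together. The ratio of the pooled counts, 443 against 1, was 284.7 with a 95% exact interval of 50.8 to 1.127e+04 for counting error (adjusted p of the fit = 6.56e-08). IER2 was 3.45-fold higher (log2 1.79, SE 0.24, adjusted p = 2.53e-06) and IER5 2.66-fold higher (log2 1.41, SE 0.14, adjusted p = 4.62e-08), with no overlap. EGR2 was higher by 2.05 (SE 0.71, adjusted p = 0.015), which did not hold without HCC1806 control replicate 1, the library with 0 counts (1.49, adjusted p = 0.0517).

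KLF6 was higher by 0.69 (SE 0.19, adjusted p = 0.00431) and KLF4 by 0.48 (SE 0.16, adjusted p = 0.0127) in MDA-MB-468 controls, and KLF10 was lower, at -0.50 (SE 0.15, adjusted p = 0.00583). KLF2 (0.44, SE 0.21, adjusted p = 0.0649) missed the threshold and passed with the replicate block (0.46, adjusted p = 0.0427). In this comparison the block joined libraries of different lines by replicate number alone, a pairing that was not checked. With library size alone as the scaling, the median gene moved by -0.25 in this comparison, and the KLF4 difference became 0.24 (adjusted p = 0.161). The KLF4 call also ended without MDA-MB-468 control replicate 2 (0.41, adjusted p = 0.0531). With only genes that averaged 50 counts or more, the differences of KLF4 (0.17, adjusted p = 0.317) and KLF6 (0.38, adjusted p = 0.0927) both missed the threshold. EGR1 (-0.01, SE 0.69) and MYC (0.02, SE 0.19) were near 0, and the sign of each changed with the fit, MYC running from -0.29 to 0.04 over the other scalings, filters and models. Set beside the effect of depletion, KLF4 in depleted HCC1806 (29.2 ± 5.01 CPM) stood above control MDA-MB-468 (16.0 ± 2.19 CPM) and near depleted MDA-MB-468 (27.0 ± 4.79 CPM).

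Levels between genes were compared per kilobase of exon. MYC led in both control groups, at 77.4 ± 16.3 CPM per kb in HCC1806 and 78.7 ± 9.19 in MDA-MB-468, clear of the next gene in each. In HCC1806 controls it was followed by EGR1 (26.6 ± 28.2), IER5 (12.5 ± 1.16), IER2 (9.83 ± 2.58), KLF10 (8.19 ± 1.11) and KLF6 (7.83 ± 1.61), each overlapping the next. KLF4 (3.12 ± 0.234) and KLF2 (1.76 ± 0.394) followed, clear of their neighbours, and EGR2 and EGR3 were lowest. In MDA-MB-468 controls IER2 (34.0 ± 4.55), IER5 (33.3 ± 3.23) and EGR1 (26.4 ± 6.71) overlapped, and below them came KLF6 (12.6 ± 1.40), KLF10 (5.81 ± 0.316), KLF4 (4.37 ± 0.598), KLF2 (2.40 ± 0.0700), EGR3 (0.864 ± 0.385) and EGR2 (0.149 ± 0.0132), each clear of the next. After depletion in HCC1806, KLF10 (20.4 ± 3.97) and KLF6 (14.8 ± 5.21) came next in mean level after MYC and EGR1 and overlapped IER5 (13.9 ± 2.37).

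The rise in HCC1806 took in further genes of the KLF family. Of its 16 members listed, 15 passed the filter on low counts, and in HCC1806 7 of the 15 were called higher and 1 lower, against 1.16% and 1.32% of all genes. The 7 include the 4 KLF genes described above. Of the 11 other family genes tested, 3 were called higher and 1 lower. In MDA-MB-468 the edgeR model of 12 libraries called 0 of the 15, against 0.17% of all genes higher, with 3 at an unadjusted p under 0.05. Of these 3, KLF4 and KLF10 were higher with depletion. KLF14 was lower (-0.86, SE 0.34, adjusted p = 0.788), with every depleted library below every control library. Beyond the 4 described, KLF11, a close relative of KLF10 that is also induced by TGF-beta, read 4.80, 3.00 and 2.12 CPM in control and 6.91, 7.80 and 10.3 CPM in depleted libraries of HCC1806 (1.34, SE 0.21, adjusted p = 0.00275). In MDA-MB-468, where KLF11 stood at 56.7 ± 3.10 CPM in control and 56.9 ± 3.38 CPM in depleted libraries, there was no difference beyond the spread (0.01, SE 0.17). KLF7 (0.78, SE 0.15, adjusted p = 0.0106) and KLF12 (0.56, SE 0.13, adjusted p = 0.0315) also rose in HCC1806, and KLF8 fell (-0.47, SE 0.12, adjusted p = 0.0399). None of these 4 passed with HCC1806 fitted alone, at adjusted p-values of 0.107, 0.119, 0.205 and 0.205, and leaving out 1 library at a time left between 1 and 5 of the 11 other family genes tested called. The interaction of KLF11 was -1.33 (SE 0.27, adjusted p = 0.0763). KLF5, the basal epithelial member, did not pass in either line (0.26, SE 0.17 and 0.18, SE 0.17). Every depleted library of MDA-MB-468 lay above every control library for KLF5. That line fitted alone gave 0.20 (SE 0.07, adjusted p = 0.166).

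**Figure D3:**
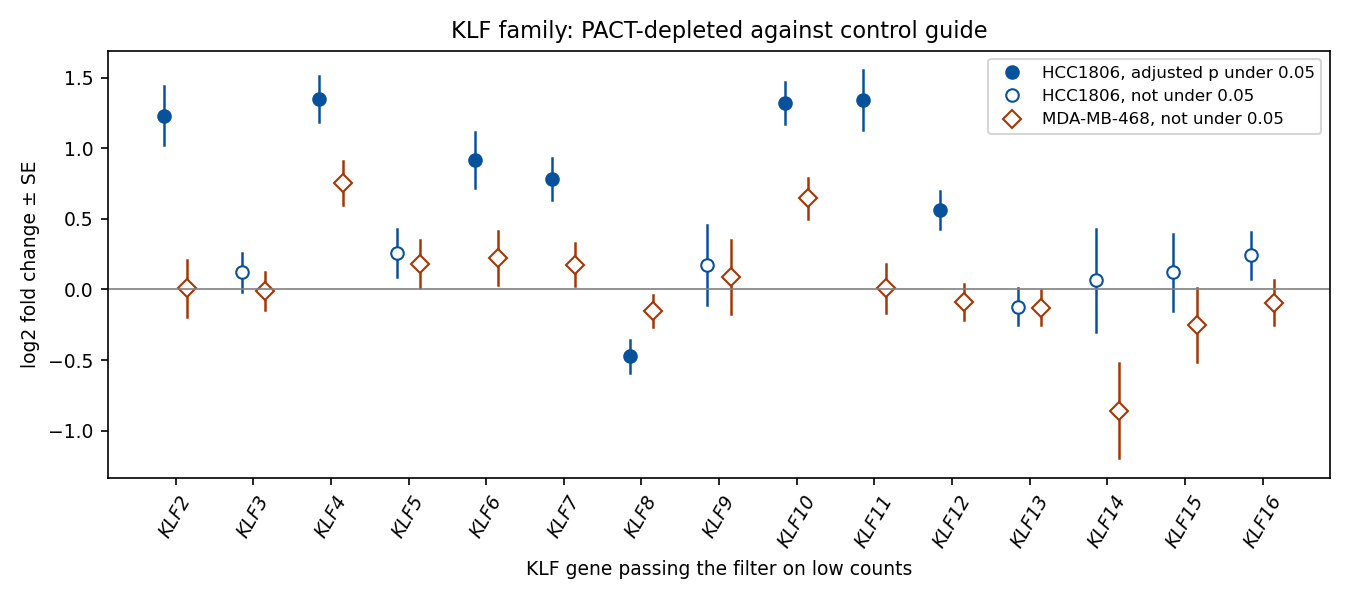
Log2 fold change ± SE (vertical axis) of the 15 KLF genes that passed the filter, depleted against control, circles for HCC1806 and diamonds for MDA-MB-468, filled where the adjusted p was under 0.05. In HCC1806 7 genes are filled above 0 and KLF8 is filled below it. No MDA-MB-468 point is filled, and KLF4 and KLF10 are the highest of them and KLF14 the lowest.

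The partners and targets of these factors gave few calls. Of 7 tested EGR partners, relatives and targets 0 rose and 1 fell in HCC1806, against 1.16% and 1.32% of all genes. Their median was 0.22. The gene that fell was NAB1, a corepressor that EGR proteins recruit, which went from 108.1 ± 4.13 to 74.3 ± 9.33 CPM (-0.54, SE 0.10, adjusted p = 0.00889). The EGR target THBS1 stood at -0.60 (SE 0.27, adjusted p = 0.321) and the target ARC at 1.26 (SE 0.55, adjusted p = 0.295). Of 4 genes, the IER relatives and HSF1, the partner of IER5, 0 passed in either line by edgeR or DESeq2, 0 and 1 of them had an unadjusted p under 0.05 in HCC1806 and MDA-MB-468, and HSF1 stood at 0.03 (SE 0.11) in HCC1806. Of 17 MYC network genes 1 rose, MXD1, a competitor of MYC for MAX, from 37.1 ± 9.28 to 64.0 ± 8.25 CPM (0.79, SE 0.15, adjusted p = 0.0101), followed by ZBTB17 (0.42, adjusted p = 0.114) and MGA (0.30, adjusted p = 0.118), and MAX itself stood at -0.01 (SE 0.11).

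Of 32 MYC target genes of ribosome and nucleotide synthesis and metabolism, 0 rose and 1 fell in HCC1806, against 1.16% and 1.32% of all genes. Their median was -0.07, and 8 of 32 were above 0, against 50.9% of all genes tested. The gene that fell was HSPD1, a mitochondrial chaperone, from 430.7 ± 104.1 to 261 ± 77.5 CPM (-0.72, SE 0.17, adjusted p = 0.0347). Next by adjusted p were the nucleolar genes NPM1 (-0.37, SE 0.13, adjusted p = 0.163) and WDR12 (-0.34, SE 0.12, adjusted p = 0.164). In MDA-MB-468 the EGR, IER and MYC lists gave 0 calls by edgeR or DESeq2, with 0 EGR, 1 IER, 2 MYC network and 0 MYC target genes at an unadjusted p under 0.05, and their medians lay between -0.04 and -0.01. NAB1, MXD1 and HSPD1 did not pass with HCC1806 fitted alone (adjusted p = 0.164, 0.14 and 0.234). With the replicate block the counts in HCC1806 were 2 EGR, 3 MYC network and 5 MYC target genes, in a fit that called 1947 of all genes. Without depleted replicate 1 the MYC targets numbered 11. Fits without a library called 301 to 1792 of all genes in HCC1806, against 672 in the main fit.

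The kinases and factors that switch immediate early genes on gave no call at the RNA level. Of 28 such genes, among them SRF, the ELK factors, CREB1 and the RAF, MEK, ERK and p38 kinases, 0 were called in either line by edgeR or DESeq2, while the unadjusted p was under 0.05 for 2 of the HCC1806 values and for 0 of the MDA-MB-468 values. The smallest adjusted p-values in HCC1806 were those of the SRF coactivator MRTFA (0.33, SE 0.12, adjusted p = 0.198) and of the JNK gene MAPK8 (0.26, SE 0.10, adjusted p = 0.235). RNA levels do not measure the activity of these proteins.

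Of 27 other immediate early genes 6 rose and 0 fell in HCC1806, against 1.16% and 1.32% of all genes. Their median was 0.68, and 26 of 27 were above 0, against 50.9% of all genes tested. ATF3, a stress-induced repressor that the integrated stress response switches on, rose from 7.57 ± 1.25 to 44.4 ± 4.71 CPM (2.55, SE 0.14, adjusted p = 3.19e-08). PPP1R15A, which brings the phosphatase that reverses eIF2alpha phosphorylation, rose from 123.0 ± 16.3 to 318.4 ± 9.57 CPM (1.37, SE 0.12, adjusted p = 1.05e-05). CSRNP1, a nuclear factor induced by AXIN1, rose by 1.17 (adjusted p = 0.00796). In MDA-MB-468 3 of the 27 rose, ATF3 (1.63, SE 0.13), PPP1R15A (1.202, SE 0.12) and the cytokine IL6 (4.84, SE 0.56, from 0.146 ± 0.0966 to 4.31 ± 1.47 CPM), and the median was 0.06. There 0.17% of all genes were called higher. With the replicate block 13 were called in HCC1806, where that fit called 1947 of all genes, and the other line had 5. With each line fitted alone 2 were called in HCC1806, and 6 in MDA-MB-468, where 74 and 323 of all genes were called.

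Markers of cell types were measured beside these genes. Of 8 epithelial markers 3 fell in HCC1806, the basal keratin KRT5 (-0.92, SE 0.18, adjusted p = 0.0106), the adhesion gene EPCAM (-0.55, SE 0.13, adjusted p = 0.0335) and the cadherin CDH1 (-0.38, SE 0.09, adjusted p = 0.0373), against 1.32% of all genes called lower. Their part in the KLF values was not tested. None of the 3 passed with HCC1806 fitted alone (adjusted p = 0.138, 0.232 and 0.26). Another basal keratin, KRT17, was the 1 marker of the 8 above 0 in HCC1806 (0.51, SE 0.15, adjusted p = 0.0809). Its depleted libraries all lay above its control libraries. In MDA-MB-468 0 of the 8 were called by edgeR, and 0 had an unadjusted p under 0.05. Of the 3 immune and 5 stromal and endothelial markers tested 0 were called in either line by the edgeR model of 12 libraries, with 1 of each kind (HCC1806) and 1 immune gene (MDA-MB-468) at an unadjusted p under 0.05, and PTPRC, the pan-leukocyte gene, was at most 0.585 CPM. CD14, a monocyte marker, was not near 0 in MDA-MB-468, at 98.7 ± 8.87 CPM in control and 78.6 ± 1.79 CPM in depleted libraries (-0.33, SE 0.12, adjusted p = 0.669), and it was lower with that line fitted alone (-0.31, adjusted p = 0.0194). In HCC1806 it stood at 1.66 ± 0.325 and 1.05 ± 0.233 CPM (-0.63, SE 0.20, adjusted p = 0.128). The stromal gene under that unadjusted threshold in HCC1806 was the collagen COL1A1, which was not near 0 either. Its mean there was 33.4 ± 6.43 CPM with the control guide and 44.5 ± 6.10 CPM with sgPACT-2. These groups overlapped (0.41, SE 0.14, adjusted p = 0.164). For MDA-MB-468 the COL1A1 means were 19.8 ± 1.54 and 18.3 ± 2.25 CPM (-0.11, SE 0.15).

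Members differed in how far they scattered between libraries of 1 group. The biological coefficient of variation, the model's estimate of scatter beyond counting error, was 0.581 for EGR1, above 99.98% of 15918 genes that averaged 50 counts or more, whose median was 0.127. In HCC1806 alone it was 0.714 and in MDA-MB-468 alone 0.0953, above 65.1% of such genes there. KLF4 and KLF10 stood at 0.138 and 0.130 in the model of both lines, near the median. The low EGR1 libraries of HCC1806 were also low in other genes of the ERK response, chosen here after their values were seen. FOS, the partner of JUN in AP-1, read 6.13, 1.39 and 14.4 CPM in control and 17.9, 2.51 and 11.6 CPM in depleted libraries. DUSP6, the phosphatase that switches ERK off, read 56.5, 11.5 and 42.8 CPM in control and 86.4, 18.7 and 24.5 CPM in depleted libraries. In both genes, as in EGR1, replicate 2 was the lowest of each group. It was also the lowest of each group for KLF2, KLF4, KLF6, KLF10, IER2, IER5 and MYC, within a far narrower range. The replicate 2 libraries held 20231734 and 20109414 counts, inside the range of the other 4, and 12.4% and 15.0% of them were mitochondrial. The part of these in the EGR1 values was not tested.

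**Figure D4:**
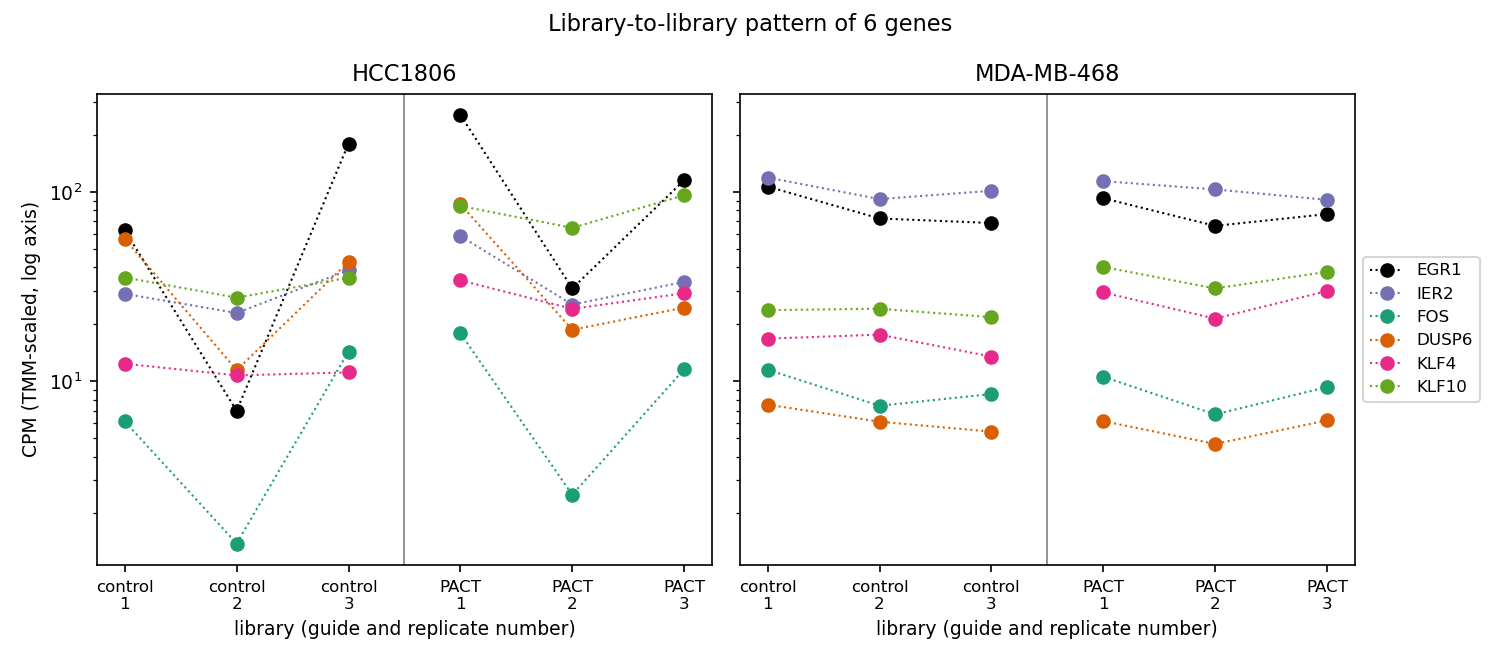
CPM (vertical log axis) of EGR1, IER2, FOS, DUSP6, KLF4 and KLF10 in each library of HCC1806 and of MDA-MB-468, control and depleted groups side by side, with dotted lines that only join the points of a gene. In HCC1806 EGR1, FOS and DUSP6 drop together in replicate 2 of each group, while KLF4 and KLF10 separate the groups.

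Same-numbered libraries of HCC1806 deviated together over genes that averaged 50 counts or more (r = 0.479, 0.294 and 0.152), though control replicate 2 was more like depleted replicate 3 (r = 0.351) than depleted replicate 2. Taken by number, EGR1 in depleted minus control libraries differed by 2.03, 2.14 and -0.64 in log2 CPM for replicates 1, 2 and 3, so that 2 pairs were higher with depletion and 1 lower. For KLF2, KLF4, KLF6 and KLF10 all 3 differences were above 0.

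The genes most like each called member were found by Pearson's r of log2 CPM over the 12 libraries, each line centred on its own mean, among 15909 genes that averaged 50 counts or more. All share the libraries and the group difference, so these values are a description. KLF4 was most like SIK3, a kinase gene (r = 0.991), and ERRFI1, a feedback inhibitor of the EGF receptor (r = 0.979). KLF10 was most like ERRFI1 (r = 0.973) and RELB, an NF-kappaB subunit (r = 0.966). ERRFI1 itself rose by 0.66 in HCC1806 (adjusted p = 0.00296) and stood at 0.39 in MDA-MB-468 (adjusted p = 0.313). RELB rose in both lines, by 2.31 (adjusted p = 3.19e-08) and 1.07 (adjusted p = 0.000395). KLF2 was most like THAP10 (r = 0.970) and SAA1, an acute-phase gene (r = 0.965), and KLF6 was most like TSC22D2 (r = 0.968) and DAPP1 (r = 0.959).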

How the data were processed

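RNA-seq counts per gene, as deposited by the authors, were used for 12 libraries, 3 in each of 4 groups set by the labels (cell line and guide). Per the submitters' processing notes, Trimmomatic 0.36, STAR 2.5.2b, featureCounts and Subread 1.5.2 were used with GRCh38. The strand setting and annotation release are not given in the sources used here, so genes that overlap on opposite strands cannot be told apart. Of 57500 genes, 485 had no symbol and held 0.0284% of counts. Depth was 18640633 to 44790741 counts, and counting intervals (exact, 95%) cover counting error only.

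Genes were filtered with filterByExpr, scaled by TMM and fitted in 1 edgeR 4.0.16 quasi-likelihood model of all 12 libraries (R 4.3.3), with contrasts for depletion in each line, their difference, and the control groups. The Benjamini-Hochberg adjustment covered 27029 genes, called under 0.05. Log2 CPM used a prior count of 2. With 3 libraries against 3, the smallest exact permutation p is 0.1. Scripts were tested on simulated data.

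Alternatives were RLE factors, library size only, DESeq2 1.42.0, no filter, a mean of at least 50 counts, a replicate block, each line alone, and each library left out. The block was the replicate number within each line, and for the control groups the replicate number across the lines. Same-numbered HCC1806 libraries deviated together (r of their deviations from the group means 0.479, 0.294 and 0.152), so the numbers were taken to pair them, from the data and not from the design, although control 2 with depleted 3 had r = 0.351. In MDA-MB-468 r was 0.116, 0.075 and 0.106 for the same number, and -0.109 to 0.004 for different numbers. The same-number values were thus higher but small, and no label says whether these libraries were paired.

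Positions came from GENCODE 29, which held 56898 of the table's IDs, and promoters from RefSeq. Named genes were all members, PRKRA, up to 3 genes of each list by smallest adjusted p in either line, and the 2 genes most like each called member. KLF5, KLF8, MAX, HSF1, FOS, DUSP6 and KRT17 were named after their values were seen. Members and lists were chosen with earlier results of these data known.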

Additional observations from a re-analysis of the deposited data

How the results depend on the processing

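The calls of KLF4 and KLF10 in HCC1806 kept their direction and side of the threshold in all 12 fits without a library and all 7 other settings. The number of members called in HCC1806, 4, was 2 with each line fitted alone, 5 with no filter, where EGR1 also passed, and 3 to 4 with a library left out. In MDA-MB-468, where 0 were called, library size only gave 1, DESeq2 2, no filter 2, the replicate block 2 and the line alone 2, and leaving out a library gave 0 to 2. The interaction, with 0, gave 1 with DESeq2, 4 with no filter and 3 with the replicate block. Between control libraries the number of members, 7, was 4 with a mean of at least 50 counts, and 6 to 8 with a library left out. The cause of these differences was not tested.

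The number of all genes called in HCC1806 was 672, 301 to 1792 with a library left out, 1245 by DESeq2, 1351 with no filter, 1947 with the replicate block and 74 alone. The number of all genes called in MDA-MB-468 was 46, 19 to 98 with a library left out, 113 by DESeq2, 143 with no filter, 102 with the replicate block and 323 alone. The number of all genes called in the interaction was 33, 9 to 168 with a library left out, 178 by DESeq2, 275 with no filter and 271 with the replicate block. In HCC1806 the block changed no call of a member.

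Some values changed sign. In MDA-MB-468 library size only gave IER2 0.0311, IER5 0.006 and MYC 0.0315, and the replicate block gave KLF2 -0.0019. The value of MYC between control libraries of the lines was -0.0173 with RLE factors, -0.0172 with DESeq2, -0.22 with library size only and -0.29 with a mean of at least 50 counts, and EGR1 was 0.0033 with no filter and 0.47 with the replicate block. That block joined libraries of different lines by replicate number alone. With a library left out, HCC1806 values ran from -0.18 to 1.94 for EGR1 and -0.0337 to 0.60 for IER2. In MDA-MB-468 they ran from -0.21 to 0.16 for EGR1, -0.21 to 0.40 for EGR3, -0.13 to 0.085 for KLF2, -0.10 to 0.0904 for IER2, -0.17 to 0.041 for IER5 and -0.16 to 0.12 for MYC. Interactions ran from -2.005 to 0.12 for EGR1, -0.61 to 0.0277 for IER2 and -0.0204 to 0.41 for MYC, and differences between controls from -0.53 to 1.27 for EGR1 and -0.11 to 0.17 for MYC. At 0 to 17 counts a library, EGR2 and EGR3 in HCC1806 are limited by depth.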
